A study of Mus musculus with 50 samples.

Results

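Colons from mice with caspase-8 deleted in intestinal epithelial cells are compared here with each other, array by array. The set is the 10 arrays titled CASP8 IEC-KO with no second gene, of 50 colon arrays in all, each from 1 mouse. The labels name the epithelial knockout (IEC-KO) but not the Cre driver, and they state no second allele or treatment for these mice. The mice were 10 to 12 weeks old by the study's design text, lived on regular chow under a 12 h light cycle, and gave 100 ng of colon RNA each. The sample labels give week ranges that rise along the list of samples, and these were not used. Replicates carry the numbers of the array titles, which fall into a first series (16, 17, 18, 19 and 20, within 1 to 30) and a second (87, 92, 100, 104 and 108, within 86 to 124). The labels do not say what the series stand for, and each gene was centred on its mean within its series before any spread or correlation was taken. The other arrays did not enter the rule that picks co-varying genes below, though the gene lists were chosen with earlier results of all these arrays known: FADD IEC-KO (10 arrays), and 5 each of Casp8 fl/fl, Fadd fl/fl, FADD IEC-KO RIPK3 IEC-KO, CASP8 IEC-KO Mlkl -/-, FADD IEC-KO Mlkl -/- and FADD IEC-KO Zbp1 -/-.

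Caspase-8 is the protease that starts death receptor apoptosis and also holds back necroptosis, a lytic death run by the kinase RIPK3 and the membrane-breaking protein MLKL. Interferon-gamma, made by lymphocytes, acts in part through the transcription factor IRF1. It induces immunity-related GTPases such as Iigp1 and Igtp, which attack the vacuoles of intracellular parasites, and the immunoproteasome subunit Psmb8, which shapes peptides for MHC class I. Epithelial cells of the gut respond to it, and interferons also raise several necroptosis genes.

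The targeted gene was checked first. Casp8 log2 signal in the 10 arrays ran from 8.60 through a median of 9.04 to 9.48, and in Casp8 fl/fl it ran from 10.27 to 10.67. No CASP8 IEC-KO array reached the floxed range. The tissue holds cells outside the epithelium that keep Casp8, and in whole colon fewer cells of a type and less RNA per cell cannot be told apart. As a check of the labelled tissue, the mean of 22 colonocyte markers was 9.51 to 10.03 and that of 18 smooth muscle markers 9.24 to 9.96 in the 10 arrays. Array medians lay between 6.42 and 6.46, after the authors' processing.

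The measure that orders the mice is the mean log2 signal of Iigp1, Igtp and Psmb8, called the score below. It was chosen by the same rule that chose the arrays, so every value within these 10 arrays is a description without a test. Interferon-gamma acts on the promoters of such genes through GAS elements and through ISRE-type elements (bound by IRF factors). To show what these look like, the 250 bases before and 50 after the RefSeq start site (GRCm38.p6) are printed for 2 of the score genes and for the 2 genes of highest correlation with the score that hold a match. Capitals mark matches, found on either strand, to the GAS letters TTCNNNGAA or to an ISRE core, written here as GAAA, any 2 bases and GAAA again. Igtp lies at chr11:58199306-58199605 on the plus strand, Psmb8 at chr17:34197945-34198244 (plus), Tgtp2 at chr11:49064163-49064462 (minus) and Irf1 at chr11:53769764-53770063 (plus).
Igtp: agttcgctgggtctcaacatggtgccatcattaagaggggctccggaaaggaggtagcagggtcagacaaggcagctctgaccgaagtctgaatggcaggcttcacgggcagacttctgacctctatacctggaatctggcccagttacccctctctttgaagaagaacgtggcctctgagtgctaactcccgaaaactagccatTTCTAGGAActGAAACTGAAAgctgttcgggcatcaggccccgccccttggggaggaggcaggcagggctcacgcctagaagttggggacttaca
Psmb8: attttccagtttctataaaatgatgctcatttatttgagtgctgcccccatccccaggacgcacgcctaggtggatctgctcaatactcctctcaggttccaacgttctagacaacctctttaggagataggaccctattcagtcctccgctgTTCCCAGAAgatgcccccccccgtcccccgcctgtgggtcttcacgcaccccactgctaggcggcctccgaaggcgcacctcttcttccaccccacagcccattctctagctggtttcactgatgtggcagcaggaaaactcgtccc
Tgtp2: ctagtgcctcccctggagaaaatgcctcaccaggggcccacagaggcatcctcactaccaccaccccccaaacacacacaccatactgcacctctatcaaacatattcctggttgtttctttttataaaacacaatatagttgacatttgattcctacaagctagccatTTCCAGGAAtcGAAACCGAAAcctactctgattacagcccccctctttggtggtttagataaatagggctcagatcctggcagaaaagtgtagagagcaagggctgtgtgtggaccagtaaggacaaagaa
Irf1: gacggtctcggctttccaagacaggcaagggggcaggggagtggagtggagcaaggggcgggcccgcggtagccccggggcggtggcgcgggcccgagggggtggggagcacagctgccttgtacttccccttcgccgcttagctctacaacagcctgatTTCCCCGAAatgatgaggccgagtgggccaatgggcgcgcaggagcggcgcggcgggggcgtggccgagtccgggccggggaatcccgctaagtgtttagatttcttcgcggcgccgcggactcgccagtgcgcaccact
In Igtp and in Tgtp2, both interferon-inducible GTPases, a GAS match and an ISRE core match stand next to each other, beginning 45 and 34 bases before the start in Igtp and 81 and 70 bases before it in Tgtp2. Psmb8 and Irf1 have a GAS match alone, 97 and 90 bases before the start. A second Irf1 window, at chr11:53770223-53770522 (plus), held no match of either kind and is not printed. A match is a description of the letters and not a shown binding site.

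In the order of their titles, the score of the first series was 5.63 in replicate 16, 6.48 in 17, 6.20 in 18, 6.83 in 19 and 6.18 in 20. In the second series it was 6.65 in replicate 87, 5.90 in 92, 6.58 in 100, 8.81 in 104 and 5.73 in 108. Replicate 104 stood alone, with the next highest array nearly 2 log2 units lower. Floxed colons scored 5.64 to 6.05, so replicates 92 and 108 lay inside that range, 16 lay at its lower edge, and 7 of the 10 lay above it. The centred score had an SD of 0.92 in CASP8 IEC-KO and 1.00 in FADD IEC-KO, against 0.14 and 0.15 in Casp8 fl/fl and Fadd fl/fl and 0.15 in CASP8 IEC-KO Mlkl -/-. The SD of CASP8 IEC-KO includes replicate 104, with a centred score of 2.072, where the other arrays lay between -1.003 and 0.565. These SDs were not tested against each other.

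**Figure D1:**
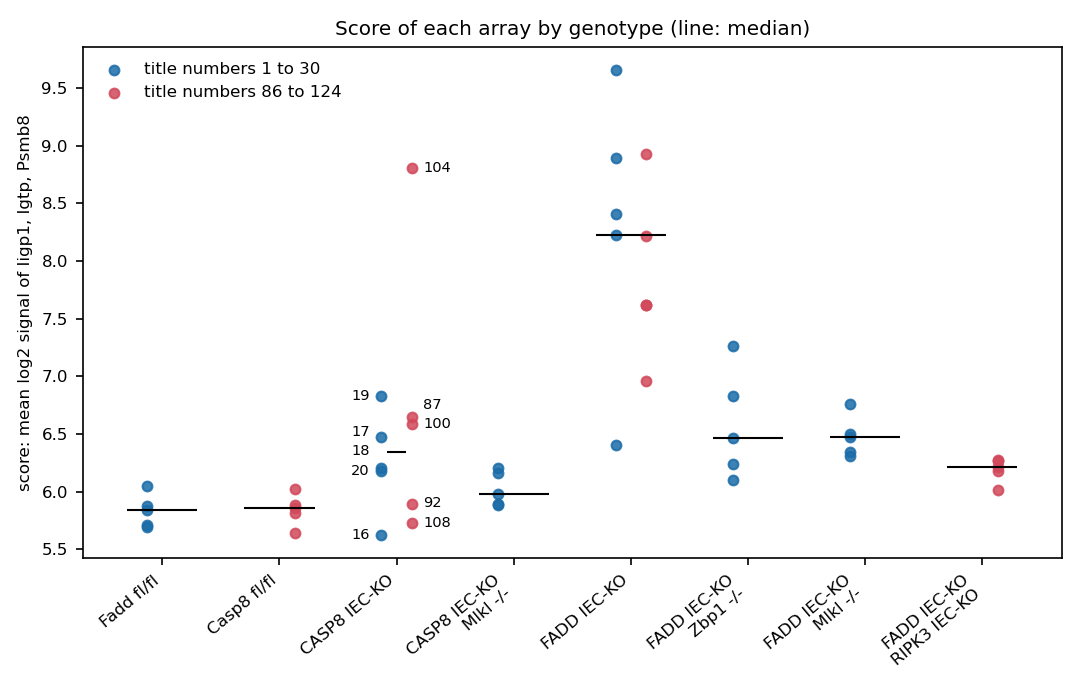
Mean log2 signal of Iigp1, Igtp and Psmb8 (vertical axis) in each of the 50 arrays by genotype (horizontal axis), coloured by title-number series, with a line at the genotype's median and CASP8 IEC-KO arrays labelled by replicate. CASP8 IEC-KO ran from 5.63 to 8.81, with replicate 104 apart from the other 9, and FADD IEC-KO ran from 6.41 to 9.66.

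The genes of the score moved together. Iigp1 ran from 5.00 through a median of 5.52 to 8.64, Igtp from 4.66 through 6.33 to 8.63, and Psmb8 from 6.90 through 7.35 to 9.14, each with its highest value in replicate 104. Each was then set against the mean of the other score genes over the 10 centred arrays. Pearson r was 0.93 for Iigp1, 0.89 for Igtp and 0.94 for Psmb8, and without replicate 104 it was 0.87, 0.87 and 0.71.

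Which genes differed most between these mice was read from the centred SD, which had a median of 0.19 log2 over all 19494 genes. The 100 genes of largest SD, from 2.84 down to 0.70, fell into sets with different high and low arrays. At the edge, Gm4841 was inside and Samsn1 just outside, both at 0.70. Interferon genes and epithelial defence genes made up much of the top, but Y-linked genes, genes of male accessory glands and clock genes were there as well. Of the 100, 31 had r of at least 0.8 with the score, 3 had r of -0.8 or below, and 11 lay between -0.3 and 0.3. Without replicate 104, 12 reached 0.8. Igtp and Iigp1, which enter the score themselves, are in both counts of 0.8 and above. By the rule for co-variation given below, which leaves the score genes out, 25 of the 100 were upward and 2 downward. Over all genes these shares were 1.28% and 1.69%. Replicate 104 held the highest centred value of 52 of the 100 and of 13.9% of all genes. The first principal component of the 3000 most variable genes took 39.9% of the variance and had an absolute r of 0.88 with the score (33.0% and 0.78 without replicate 104). Its absolute r with the mean of the defence list described below was higher, 0.95 (0.93 without replicate 104).

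Many of these genes also varied within FADD IEC-KO. Of the 100, 40 were also among the 100 most variable of 19494 genes within FADD IEC-KO and 26 among the 100 of floxed arrays. Their median SD was 0.91 in CASP8 IEC-KO, where they were chosen, 0.98 in FADD IEC-KO and 0.32 in floxed arrays, beside all-gene medians of 0.19, 0.21 and 0.18.

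**Figure D2:**
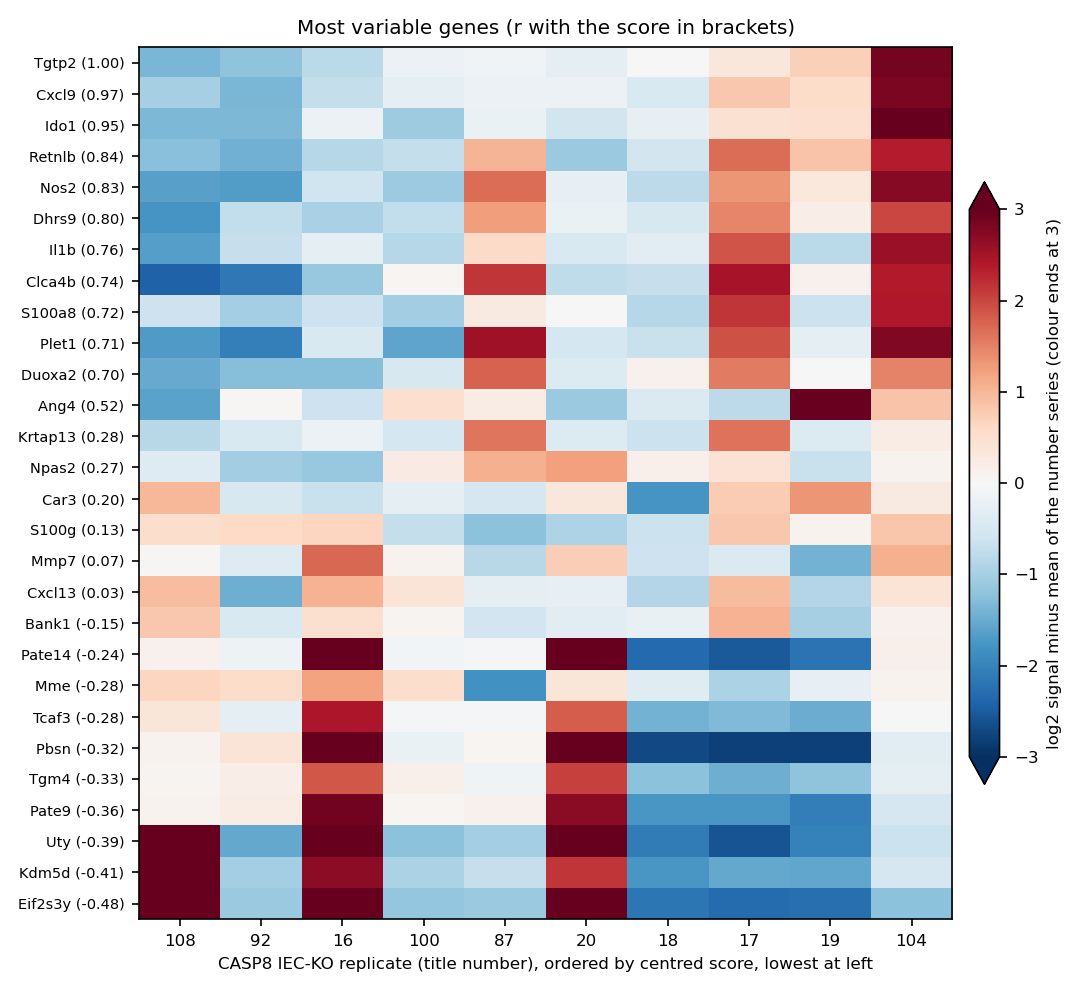
Centred log2 signal (colour, ending at 3 on either side) of the named most variable genes (rows, with r to the score in brackets) in the 10 CASP8 IEC-KO arrays (columns, from lowest to highest centred score). Interferon genes were highest in replicate 104, epithelial defence genes in replicates 17, 87 and 104, Y-linked genes in 16, 20 and 108, and the Pbsn set in 16 and 20.

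The largest spreads followed the sex of the mice as read from Y-linked genes. Eif2s3y, a Y-linked translation factor subunit, had an SD of 2.84, Uty one of 2.80 and Kdm5d one of 2.01, both histone demethylase family genes of the Y chromosome. Their mean was 8.04 to 8.18 in replicates 16, 20 and 108 and 2.76 to 3.19 in the other 7, with no array between. All 3 high-Y arrays had centred scores below 0 (-0.638, -0.083 and -1.003), as had 4 of the 7 low-Y arrays. Over the 10 arrays r between the Y-linked mean and the score was -0.43, and -0.71 without replicate 104. The part of sex in the score was not tested. The relations below were therefore also taken in the 7 low-Y arrays alone.

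A second set belonged to replicates 16 and 20. Pbsn (probasin, a secreted prostate protein) was 10.02 and 9.35 there and 2.72 to 3.55 in the other 8. Pate14 and Pate9, of a family of secreted proteins of the male tract, were 8.53 and 7.43, and 7.37 and 7.19, where the other 8 arrays lay at 1.94 to 2.43 and 2.33 to 3.08. Tgm4, the prostate transglutaminase, was 8.76 and 8.95 against 5.38 to 5.86. Replicate 108, high in Y-linked signal, had none of these, with Pbsn at 3.26. Of 25 high-Y arrays in the whole series, 3 had Pbsn above 6, the last being FADD IEC-KO Mlkl -/- replicate 15. In all 47 others Pbsn was 2.53 to 4.65. The 7 Svs (seminal vesicle) genes, set beside these after their values were seen, had SDs of 0.11 to 0.29. Svs4 was 4.26 and 4.40 in replicates 16 and 20 and 4.19 to 4.57 in the other 8.

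Epithelial defence genes formed a large set. Clca4b, of a family of secreted epithelial proteins, was 11.20, 12.01 and 12.24 in replicates 17, 87 and 104 and 7.44 to 9.93 in the other 7. Plet1, a surface protein of epithelial progenitors, was 8.88, 10.61 and 10.84 in those arrays and 6.02 to 6.70 in the other 7. Nos2, which makes nitric oxide, was 6.84, 8.10 and 9.15 there and at most 5.83 elsewhere. Duoxa2, the maturation factor of the hydrogen peroxide producing oxidase DUOX2, and Dhrs9, a retinol dehydrogenase, had the same 3 highest arrays. So did Il1b, which encodes an inflammatory cytokine, at 6.86, 6.07 and 8.09 in replicates 17, 87 and 104 and 3.84 to 4.81 in the rest. The antimicrobial and stress list had the same 3 highest arrays: the mean of 24 measured genes was 7.98, 8.29 and 8.46 in replicates 17, 87 and 104 and 7.22 to 7.70 in the other 7. Of the 100 most variable genes, 40 had r of at least 0.8 with that mean, a measure that 12 of the 100 enter themselves. The share of all genes with such an r was not counted, so the 40 have no background beside them.

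This order was near that of the score but not the same. Replicate 19 had the second highest score (6.83) and a defence mean of 7.70, and replicate 17, with a defence mean of 7.98, scored 6.48. The score and the defence mean had r of 0.81 (0.77 without replicate 104). Ang4, an antimicrobial ribonuclease, departed from both: it was 7.82 in replicate 19 and 3.38 to 5.83 in the others. Mptx1 and Mptx2, mucosal pentraxins of the epithelium, ran the other way from the score, with r of -0.81 and -0.82 (-0.36 and -0.47 without replicate 104).

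Clock genes varied as well. The clock score subtracts the mean of Ciart, Dbp, Nr1d1, Nr1d2, Per2, Per3 and Tef from that of Clock, Arntl and Npas2, and it ran from -1.44 in replicate 16 and -1.119 in 92 to 1.37 in 17 and 1.81 in 20. Dbp, an output factor of the clock, was 11.84 in replicate 16, 8.76 in 17 and 9.04 in 20. Of the 100 most variable genes, 10 had an absolute r of at least 0.8 with the clock score, some of which it contains. How many of all genes reached this was not counted either. The clock score had r of 0.35 with the interferon score and of 0.51 with the defence mean, and the labels give no collection times.

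Other variable genes had r near 0 with the score over all 10 arrays. Mmp7, a matrix metalloproteinase of antimicrobial secretory cells, was highest in replicates 16 and 20 (6.99 and 6.01) with r of 0.07. Its r was -0.72 without replicate 104. Those 2 arrays are also the ones high in Pbsn. Over the 10 arrays Mmp7 had r of 0.77 with the mean of Pbsn and Tgm4 and of 0.63 with the Y-linked mean. Whether Mmp7 belongs to the Pbsn set was not tested. Cxcl13, the chemokine that draws B cells into follicles, had r of 0.03 and ran from 6.08 in replicate 92 to 9.10 in 16. Bank1, a B cell adaptor, had r of -0.15. Of the B cell markers 0 of 14 co-varied, with a median r of -0.15, but without replicate 104 all 14 had a negative r (median -0.39). Their mean was highest in replicates 17, 108 and 16 (6.58, 6.33 and 6.30) and lowest in 92 and 19 (5.34 and 5.35). Car3, a carbonic anhydrase of fat and muscle, was highest in replicates 19 and 17 (7.76 and 7.19) with r of 0.20, and the mean of 11 adipocyte markers was 5.40 to 6.20 with its highest value in replicate 19.

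Co-variation with the score was then described across all genes. A gene was taken to co-vary upward when r was at least 0.8 over the 10 centred arrays, the slope had the same sign in both series and the centred SD was at least 0.2. By this rule 250 of 19494 genes (1.28%) co-varied upward and 330 (1.69%) downward, the score genes left out. The slope is the log2 change of a gene per log2 unit of score. It had a median of 0.32 (range 0.18 to 1.68) in the upward genes and of -0.26 (-0.81 to -0.18) in the downward genes, against -0.01 over all genes. Just inside the upward limit was Ang2 (r = 0.80052) and just outside it Hddc2 (0.79972), and for the downward limit these were Dmpk (-0.8 after rounding) and Abhd18 (-0.79969). Another 19 and 24 genes passed the limit on r and SD but had opposite signs in the 2 series.

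Replicate 104 weighed heavily in these counts. It held the highest centred value of all 250 upward genes and the lowest of all 330 downward genes. With the rule applied again to the other 9 arrays, 120 and 93 genes passed, of which 38 and 21 were among the first 250 and 330. In those 9 arrays r had a median of 0.65 in the 250 and of -0.61 in the 330, arrays that the rule had also used. Leaving out replicate 108 as well, the pair of centred scores farthest from their median, gave 145 and 106 genes, 28 and 19 of them shared. In the 7 low-Y arrays, which include replicate 104, 422 and 505 genes passed, 162 and 185 of them shared. With a sex term from the Y-linked genes in all 10 arrays 224 and 298 passed, and with a score made of other interferon-gamma genes 327 and 427. Single arrays could also raise a count: the upward count was 412 without replicate 87 and the downward count 518 without replicate 19.

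**Figure D3:**
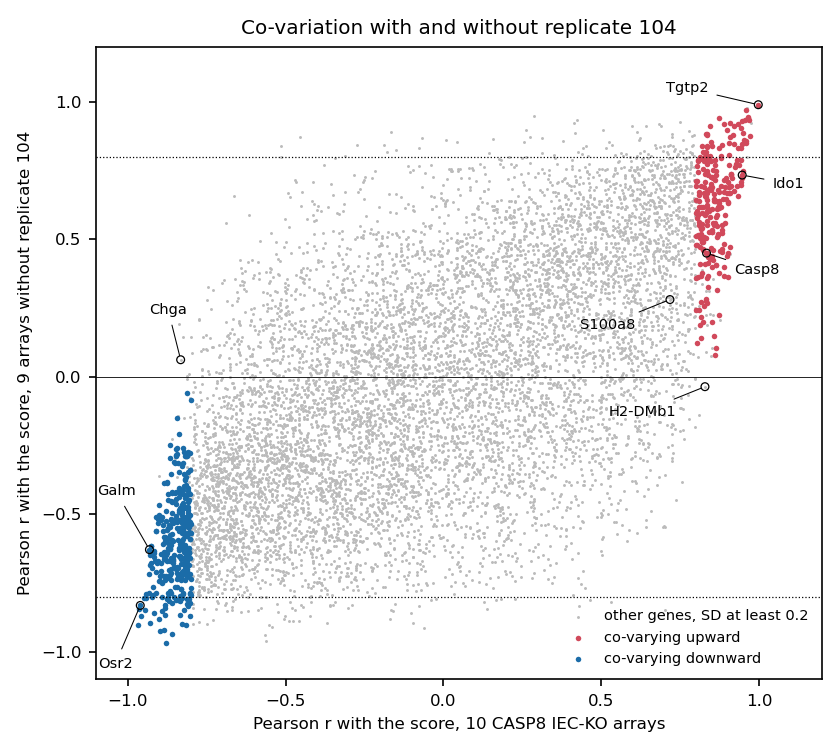
Pearson r of each gene with the score over the 10 CASP8 IEC-KO arrays (horizontal axis) and over the 9 without replicate 104 (vertical axis), for genes with a centred SD of at least 0.2, with dotted lines at 0.8 and -0.8. Without replicate 104 the median r was 0.65 in the 250 upward and -0.61 in the 330 downward genes.

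Interferon-gamma GTPases followed the score most closely. Beside Iigp1 and Igtp, 8 of the 9 further GTPases measured co-varied upward, and the median r of these 9 was 0.94 (0.79 without replicate 104), against -0.07 over all genes. Tgtp2, of the same family as Iigp1, was 4.98, 6.12, 5.79, 6.496 and 5.49 in replicates 16 to 20 and 6.29, 5.18, 6.22, 9.26 and 5.02 in 87, 92, 100, 104 and 108. It tracked the score array by array, with r of 0.998 and Spearman rho of 0.96, and r of 0.99 without replicate 104 and again without 104 and 108. Its slope was 1.29 in the first series and 1.39 in the second. Irgm2, a regulator of these GTPases, had r of 0.96 (0.97 without replicate 104) and slopes of 1.29 and 0.87. Guanylate-binding proteins act on the same vacuoles: Gbp2 had r of 0.95 and Gbp9, the 1 that missed the limit, 0.77 (0.86 and 0.18 without replicate 104).

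Of the signal transducers and chemokines 8 of 16 genes were upward, with a median r of 0.84 (0.58 without replicate 104). Irf1, the transcription factor at the head of the response, spanned 8.90 to 10.20 with a median of 9.30, and r was 0.97 (0.94 without replicate 104). Cxcl9 and Cxcl10, chemokines that attract T cells, had r of 0.97 and 0.96. Cxcl9 was 9.52 in replicate 104 and 4.51 to 6.52 in the others. Ido1, a tryptophan-degrading enzyme, had the largest slope of all upward genes, 1.68. That slope rested on replicate 104, where Ido1 was 9.85 against 4.23 to 5.69 in the other 9, and it was 0.72 in the first series and 1.80 in the second. Cd274, the checkpoint ligand PD-L1, had r of 0.94 (0.66 without replicate 104). Ifng, the gene of interferon-gamma itself, missed the limit, with r of 0.535 (-0.061 without replicate 104) and a low signal of 3.91 to 4.91. Its receptor genes Ifngr1 (r = 0.255) and Ifngr2 (0.343) missed it too, as did the receptor kinase gene Jak1 (-0.275).

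Antigen presentation was divided. Of the 11 immunoproteasome and class I genes measured beside Psmb8, 7 co-varied upward, and the median r of these 11 was 0.86 (0.56 without replicate 104). Tap1, which carries peptides into the endoplasmic reticulum, had r of 0.96 and slopes of 1.15 and 0.80, and the proteasome activator Psme1 had r of 0.96. MHC class II showed 0 of 9 upward, and its median r went from 0.68 to -0.20 without replicate 104. H2-DMb1, a class II peptide editor, was 10.22 in replicate 104 and 7.79 to 8.62 in the others, with r of -0.04 over those 9.

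Genes of the type I interferon response co-varied in 9 of 25 cases, with a median r of 0.78 (0.69 without replicate 104). Oasl2, an antiviral OAS-like protein, was 9.83 in replicate 104, 9.62 in 19 and 9.05 in 17, and 6.68 to 8.12 in the other 7. Its slope was 2.54 in the first series and 0.84 in the second. The same held for Ifit1 (2.46 and 0.67) and Rtp4 (2.08 and 0.63), whose r of 0.78 missed the limit, so replicate 19 came close to replicate 104 for these genes and not for Ido1 or Cxcl9.

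Necroptosis and death receptor genes were upward in 5 of 17 cases, among them Zbp1, which the type I interferon list also counts. Zbp1, the nucleic acid sensor that engages RIPK3, ran from 5.74 through 6.26 to 7.80 with r of 0.95 (0.89 without replicate 104). Mlkl ran from 8.05 through 8.70 to 9.54 with r of 0.94 (0.90 without), and Ripk3 from 6.83 through 7.46 to 8.46 with r of 0.83 (0.82 without). Tnfsf10, the death ligand TRAIL, had r of 0.92. Casp8 itself met the limit with r of 0.83, its remaining signal being highest in replicate 104 at 9.48, but r was 0.45 without that array. Fadd, the adaptor of caspase-8, had r of 0.49.

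**Figure D4:**
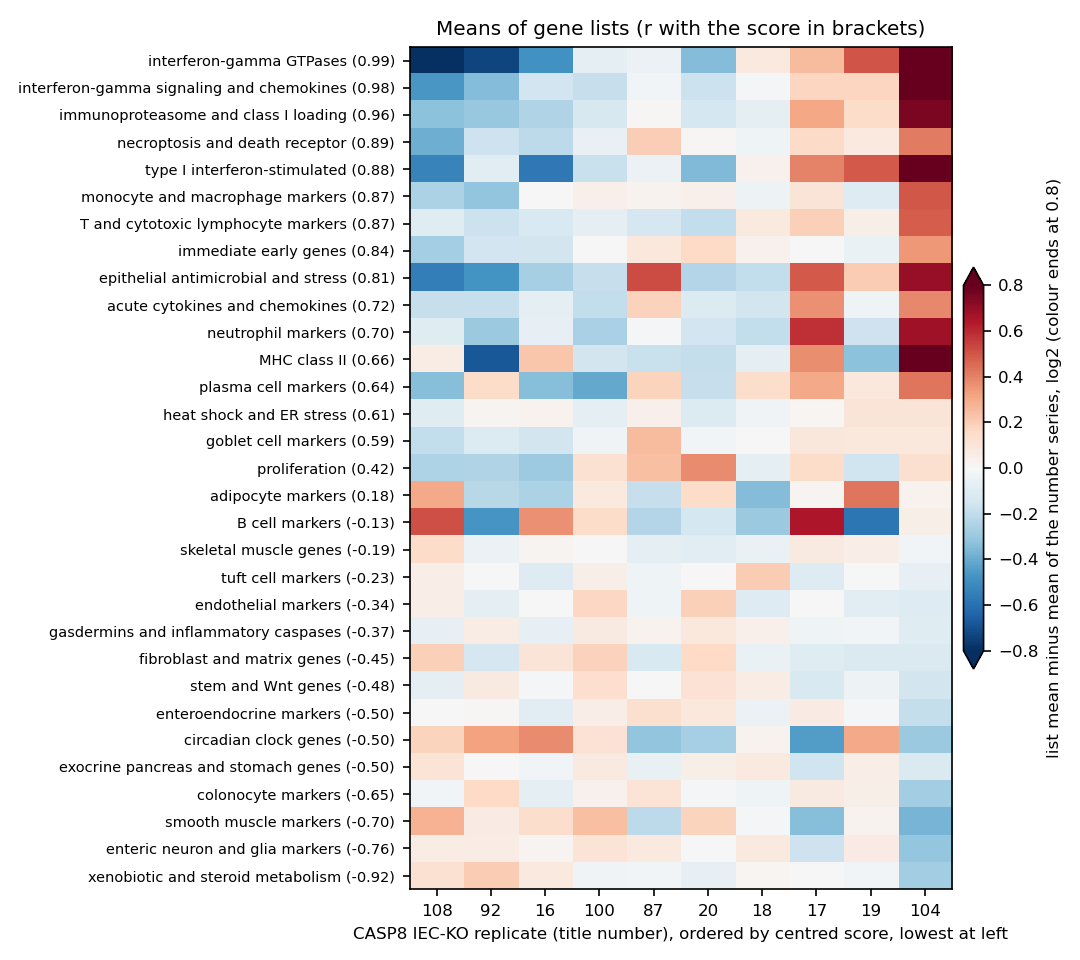
Mean of each gene list minus its mean in the number series (colour, log2, ending at 0.8 on either side) in the 10 CASP8 IEC-KO arrays, ordered from lowest to highest centred score, with r of the list mean to the score in brackets. Interferon-gamma GTPases had an r of 0.99, their mean holding 2 of the 3 score genes (0.98 without these), and xenobiotic metabolism genes one of -0.92, and replicate 104 was highest in the interferon, antimicrobial, neutrophil, macrophage and T cell lists.

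Markers of immune cells moved with the score mainly through replicate 104. Neutrophil markers had 1 of 14 upward (Lcn2, which epithelium also makes), and their median r was 0.57 (0.11 without replicate 104). Their mean was 5.53 in replicate 104, 5.198 in 17 and 4.42 to 4.84 in the other 8, against 4.44 to 4.73 in floxed arrays. S100a8, a neutrophil calprotectin subunit, was 6.51 in replicate 104, 5.73 in 17 and 2.72 to 4.38 in the others. Monocyte and macrophage markers had 2 of 15 upward (Fcgr4 and Ly6c2), a median r of 0.66 (0.30 without replicate 104) and a mean of 7.41 in replicate 104 and 6.59 to 6.98 elsewhere. T cell markers had 2 of 18 upward (Icos and Ccl5), a median r of 0.68 (0.18 without replicate 104) and a mean of 5.42 in replicate 104 and 4.58 to 4.97 elsewhere. The part of these cells in the other co-varying genes was not tested.

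Downward genes had slopes of smaller median size. Osr2, a zinc finger transcription factor, had the lowest r, -0.96, at 4.31 in replicate 104 and 4.99 to 5.61 in the other 9 (r = -0.83 without replicate 104). Galm, a galactose-metabolising mutarotase, was 8.39 in replicate 104 and 9.18 to 9.52 in the others, with slopes of -0.10 in the first series and -0.35 in the second. Xenobiotic and steroid metabolism had 5 of 27 genes downward: Cyp2c55, Cyp2c68, Ces1f, Sult1a1 and Abcb1a. Cyp2c55, a colon cytochrome P450, had slopes of -0.79 and -0.69 and r of -0.83 (-0.80 without replicate 104). It was 8.21 in replicate 104 and 8.80 in 87, against a median of 10.02.

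Smooth muscle markers all had negative r, 18 of 18, but 1 of 18 met the limit (Casq2, a calcium store protein). Their mean was 9.24 in replicate 104, 9.40 in 87 and 9.45 in 17, and 9.67 to 9.96 in the other 7, against 9.94 to 10.18 in floxed arrays. The lowest 3 arrays were thus those of highest defence genes, and whether the share of muscle in the sample played a part was not tested. Sox10, a glial transcription factor, had r of -0.92 (-0.64 without replicate 104), while the 14 neuron and glia markers had a median r of -0.37 (-0.08 without). Enteroendocrine, B cell, proliferation, clock, adipocyte and skeletal muscle lists had 0 genes co-varying in either direction.

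Upward genes were often neighbours on the chromosome. In the order of RefSeq genes on the array, 35 of 250 upward genes (14.0%) stood next to another upward gene, while 2.50% of all genes had an upward neighbour. For downward genes these shares were 12 of 330 (3.64%) and 3.32%. The runs were of related genes for the most part: Ly6e, Ly6i, Ly6c1 and Ly6c2 (small surface proteins), Gbp7, Gbp3 and Gbp2, Parp14, Dtx3l and Parp9 (ADP-ribosylation), and Psmb9 with Tap1. Similar sequences within the Ly6 and Gbp families could share probe signal, which was not tested. In the promoters, the ISRE core letters stood in 28 of 192 upward genes that matched a RefSeq promoter (14.6%), in 7 of 255 downward genes (2.75%) and in 3.94% of all 15683 matched genes. GAS letters stood in 19 of 192 (9.9%), 21 of 255 (8.24%) and 9.03%. Over all 32851 promoters of the table the shares were 3.44% and 8.3%.

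The relation could be tested in FADD IEC-KO, which lacks the adaptor of caspase-8 in the same cells and whose 10 arrays did not enter the rule on r. There a slope on the score was fitted for all 19494 genes in limma with the series as a term. Passing an adjusted p of 0.05 in the rising direction were 373 genes (1.91%), and 425 (2.18%) in the falling direction. Leaving out the score genes, which are fitted on their own mean, 370 genes rose. Of the 250 genes upward in CASP8 IEC-KO, 90 (36.0%) rose with the score in FADD IEC-KO and 0 fell, and of the 330 downward genes 77 (23.3%) fell and 0 rose. At an unadjusted limma p under 0.05, 156 of the 250 had a positive and 1 a negative slope, and 187 of the 330 had a negative and 5 a positive slope, where 8.36% of all genes had a positive and 10.7% a negative slope. In direction alone, 226 of 250 and 290 of 330 had the same sign, against 47.8% of all genes with a positive and 52.2% with a negative slope.

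The counts in FADD IEC-KO depended on a few arrays. Without replicate 22, the highest score, 56 genes rose and 52 fell in all, and 25 and 9 members passed. Without replicate 117 these were 92, 66, 40 and 10, and without 95 the falling counts were 209 and 37. Without replicates 22 and 23 together, 18 genes rose (0.0923%) and 5 fell (0.0256%), and of the members 12 of 250 rose and 0 of 330 fell by limma, with 135 (54.0%) and 141 (42.7%) at an unadjusted p under 0.05, against 6.12% and 8.62% of all genes. When the clock score was added to the fit, 28 and 5 members passed, of 57 and 34 genes. With the score genes left out, the rising genes numbered 16 without replicates 22 and 23 and 54 with the clock score. The medians of the members' slopes moved little, from 0.26 and -0.19 to 0.26 and -0.17 without replicates 22 and 23 and to 0.24 and -0.19 with the clock score.

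By role, all 9 interferon-gamma GTPases outside the score rose with it in FADD IEC-KO, 6 of them also without replicates 22 and 23. Tgtp2 had a slope of 1.55 ± 0.08 (SE, n = 10 arrays, limma adjusted p = 2.23e-06) beside 1.38 in CASP8 IEC-KO. Ido1 had 1.84 ± 0.20 (limma adjusted p = 0.00166), Cxcl9 1.60 ± 0.20 (limma adjusted p = 0.00412) and Tap1 0.69 ± 0.07 (limma adjusted p = 0.000709). Among necroptosis and death receptor genes 8 of 17 rose. They included Ripk3 at 0.59 ± 0.11 (limma adjusted p = 0.0154), Zbp1 at 0.49 ± 0.10 (limma adjusted p = 0.0211) and Mlkl at 0.27 ± 0.07 (limma adjusted p = 0.0462). The others were Tnf, Tnfaip3, Tnfrsf1a, Tnfrsf10b and Tnfsf10. Without replicates 22 and 23, Tgtp2, Ido1 and Tap1 still passed, while Cxcl9 (limma adjusted p = 0.0876), Ripk3 (0.147), Zbp1 (0.183) and Mlkl (0.144) did not. Of the 17 necroptosis and death receptor genes 0 passed (11 with a positive slope at an unadjusted p under 0.05). Casp8, not targeted there, had a slope of 0.03 ± 0.05 (limma adjusted p = 0.784).

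Of 25 type I interferon genes, 2 rose in FADD IEC-KO: Stat2, and Zbp1, which is also in the necroptosis and death receptor list. Oasl1 had a slope of 0.15 ± 0.08 (limma adjusted p = 0.389) and Oasl2 of 0.38 ± 0.18 (limma adjusted p = 0.3), where CASP8 IEC-KO had 0.67 and 1.03. Of neutrophil markers 10 of 14 rose, with S100a8 at 2.56 ± 0.44 (limma adjusted p = 0.0141) beside 1.05 in CASP8 IEC-KO, and smooth muscle markers fell in 14 of 18 cases. Of the antimicrobial and stress list 11 of 24 rose and 2 fell, with Retnlb, a goblet cell antimicrobial, at 2.26 ± 0.35 (limma adjusted p = 0.0113) beside 1.30. Cyp2c55 fell by 1.71 ± 0.34 per unit of score (limma adjusted p = 0.0196). Without replicates 22 and 23 no gene of these lists passed by limma. At an unadjusted p under 0.05, 5 type I interferon genes, 9 neutrophil markers and 14 antimicrobial and stress genes had a positive slope there, and 17 smooth muscle markers a negative one. The limma adjusted p was 0.173 for S100a8, 0.0772 for Retnlb and 0.14 for Cyp2c55. The difference in slope between the knockouts was not tested for any of these genes.

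**Figure D5:**
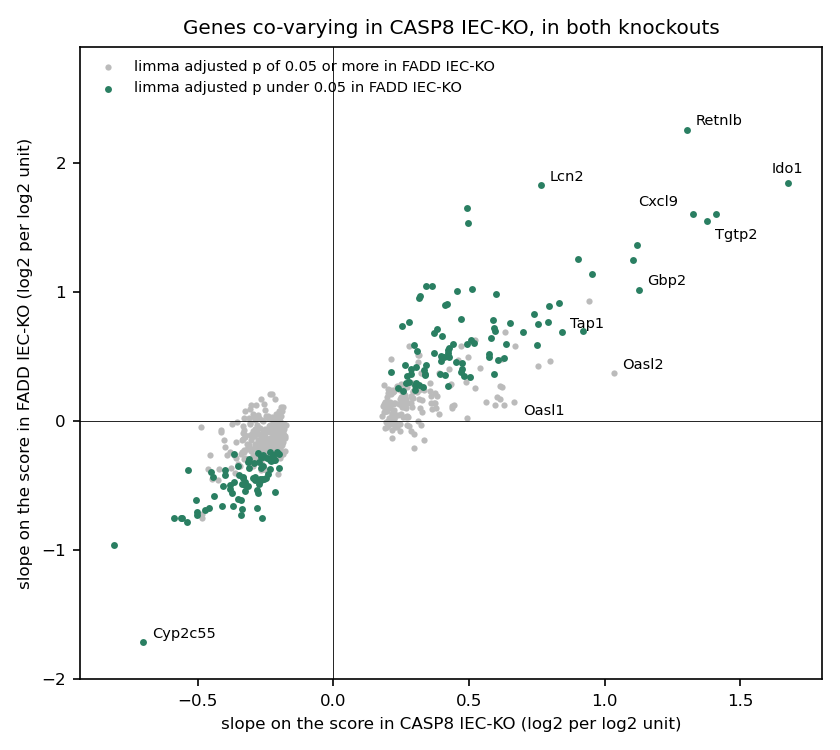
Slope of each co-varying gene on the score (log2 per log2 unit) within CASP8 IEC-KO (horizontal axis) and within FADD IEC-KO (vertical axis), coloured by the limma adjusted p in FADD IEC-KO. The 250 upward genes lie at right and the 330 downward genes at left, and 226 and 290 of them had the same sign in FADD IEC-KO.

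In the remaining 6 genotypes, 30 arrays with scores of 5.64 to 7.26, slopes were fitted within genotypes. By limma 14 genes rose (0.0718%) and 2 fell (0.0103%). Beside Iigp1, Igtp and Psmb8 these were 11 risen genes, and all 11 were among the 250 upward genes: Cd274, Dtx3l, Gbp2, Gbp4, Gbp7, Gm5431, Irgm2, Parp14, Psmb9, Tap1 and Tgtp2. Gbp2 had a slope of 1.46 (limma adjusted p = 1.76e-07) and Tgtp2 of 1.53 (limma adjusted p = 0.00353). None of the 330 downward genes passed (0 by limma, 28 or 8.48% at an unadjusted p under 0.05, against 3.4% of all genes), and the fallen genes were Mtnr1a and Rcvrn. The result leaned on FADD IEC-KO Zbp1 -/-, the genotype of widest score (SD 0.47): without it 1 gene rose in all, and without its replicate 4 the count was 8, of which 5 were members. Members that rose also numbered 7 without FADD IEC-KO Mlkl -/- replicate 14 and 7 without Casp8 fl/fl replicate 91.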

How the data were processed

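Colon RNA of 50 mice was measured on 1 array each. Per the submitters' processing notes the authors used Transcriptome Analysis Console and Affymetrix Expression Console. No version or normalization is stated there. Values were deposited as 1 log2 signal per probe set. No scanner files or detection calls were used here. Of 22142 probe sets, 19527 carried 1 symbol and 2615 none, and 33 duplicates of lower mean were dropped, leaving 19494 genes. No 2 CASP8 IEC-KO arrays were copies (median absolute difference 0.156 to 0.251).

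Arrays were grouped by title and every gene was centred within title-number series. The members and gene lists (33) were chosen with earlier results of these data known. Genes named are the score genes, the targeted and necroptosis genes, the 20 of largest centred SD, the 12 highest and 12 lowest r (SD at least 0.3), the 10 most variable with r between -0.3 and 0.3, and up to 4 of largest slope per list, without predicted genes. Genes outside this rule (Mptx1, Mptx2, Ly6 genes, the male tract genes and list members given as the whole of a count) were named after their values were seen. Tests used limma 3.58.1 (R 4.3.3), lmFit and eBayes, with Benjamini-Hochberg adjustment over all genes. Where p-values are given, nothing in the labels says whether mice were littermates, and they measure only the spread between these samples. The number of arrays limits precision. The procedure was tested on simulated data. Alternatives were quantile normalization, no centring, the probe set of largest SD, the dimmest 40% of genes left out, Spearman correlation, a score from other interferon-gamma genes, a sex covariate, a clock score covariate, trend and robust moderation and leaving out arrays or genotypes. Leaving out 104 and 108, leaving out 22 and 23, and the low-Y arrays were added after the data were seen. Promoters came from RefSeq (GRCm38.p6), which served only for names, gene order and these sequences.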

Additional observations from a re-analysis of the deposited data

Results flagged for a closer look

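In 22 of 90 measures, 1 of the 10 CASP8 IEC-KO arrays stood apart, its gap to the nearest other array divided by the whole range being above Dixon's 95% critical value for 10 arrays after centring by series. Chance alone marks about 1 in 20 groups, and the measures are not independent. In 21 of the 22 the array was replicate 104. It was highest for the score (0.490), the list means of interferon-gamma GTPases (0.472), interferon-gamma signaling and chemokines (0.571) and monocyte and macrophage markers (0.486), and the genes Iigp1 (0.581), Psmb8 (0.521), Ido1 (0.650), Tgtp2 (0.505), Cxcl9 (0.481) and Psme1 (0.498). It was lowest for the colonocyte list (0.469) and for Osr2 (0.523), Msh5 (0.476), Galm (0.546), Zan (0.496), Ces1f (0.530), Gria3 (0.612), Efcab7 (0.505), Sox10 (0.498), Cpsf4l (0.538) and Ociad2 (0.494). Most of these are no independent finding: the score and its genes were fixed by the choice of the arrays, the GTPase mean holds 2 score genes, and the other genes named were picked for their r, slope or SD, to which replicate 104 contributes. The remaining measure was the tuft cell list, highest in replicate 18 (0.505).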

How the results depend on the processing

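Of 3035 gene slopes recomputed under the alternatives for 163 genes, 3003 moved by less than the spread between arrays, 29 moved by more and 3 were labelled reversed. Of 625 list slopes 616 moved by less and 9 by more, with none labelled reversed. The gene slopes so labelled were those of Chga (slope 0.029 without replicates 104 and 108, and -0.209 to 0.010 without 1 array, the highest without 104) and H2-DMb1 (-0.021 to 0.763 without 1 array, the lowest without 104). Not every change of sign was labelled a reversal. The slope of the MHC class II mean was 0.337 over the 10 arrays and -0.117 without replicate 104. For the colonocyte mean these were -0.090 and 0.075, and for the enteroendocrine mean -0.052 and 0.091. H2-Aa had r of 0.676 and -0.291. With the dimmest genes left out, the neutrophil and sex-linked lists had no value. Of the 100 most variable genes, 77 to 99 stayed when 1 array was left out and 48 when the dimmest genes were removed, which takes dim genes out of the ranking. Co-varying genes in CASP8 IEC-KO numbered 97 upward and 140 downward by Spearman correlation, 145 and 106 without 104 and 108, 422 and 505 in low-Y arrays, and 120 to 412 and 93 to 518 without 1 array. In FADD IEC-KO, rising genes in all, score genes included, numbered 57 with the clock score, 18 without 22 and 23, and 56 to 425 without 1 array. Falling genes in all numbered 673 without centring, 759 without dim genes, 34 with the clock score, 5 without 22 and 23, and 52 to 489 without 1 array. Rising members numbered 28, 12 and 25 to 99 under the clock score, without 22 and 23, and without 1 array. Falling members numbered 119 without dim genes, 5 with the clock score, 0 without 22 and 23, and 9 to 84 without 1 array. In the other 6 genotypes, all rising genes numbered 1 without FADD IEC-KO Zbp1 -/-, 6 without FADD IEC-KO Mlkl -/-, 9 without Casp8 fl/fl and 8 to 20 without 1 array, and rising members 1, 4, 7 and 5 to 12. All falling genes numbered 1 without dim genes and without FADD IEC-KO RIPK3 IEC-KO, FADD IEC-KO Mlkl -/-, FADD IEC-KO Zbp1 -/- or Fadd fl/fl, 0 without Casp8 fl/fl, and 1 to 3 without 1 array, and falling members 1 without dim genes and 0 to 1 without 1 array. The cause of these moves was not tested, apart from the smaller number of genes or arrays. No paired analysis was possible because no title number occurs in more than 1 group.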
